A study of Mus musculus with 55 samples.

Results

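The genes described here are the 77 mitochondrial ribosomal protein genes of the mouse whose symbol is Mrpl or Mrps followed by a number, with pseudogene entries left out. Members are defined by symbol, out of the 24453 genes in the deposited expression table, and the family was picked with earlier results of these data known. By symbol, 48 belong to the large subunit (Mrpl) and 29 to the small subunit (Mrps). All 77 passed the filter on low values, which left 12541 genes for testing.

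The mitochondrial ribosome is built from RNAs encoded in mitochondrial DNA and from proteins that are encoded in the nucleus, translated in the cytosol and imported. It makes the few respiratory chain subunits that mitochondrial DNA still encodes, so that a working respiratory chain needs both gene sets. Muscles rich in slow, oxidative fibres have more mitochondria than fast, glycolytic ones. A few members carry a symbol that no longer matches their place: Mrps18a and Mrps30 sit in the large subunit in current structures, and Mrps36 is now assigned to the α-ketoglutarate dehydrogenase complex of the citric acid cycle.

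RNA was sequenced from 55 libraries in 12 groups, made by 3 hindlimb muscles, 2 genotypes and 2 ages. The muscles were the flexor digitorum brevis (FDB), a small muscle of the foot, the extensor digitorum longus (EDL), a fast muscle of the lower leg, and the soleus (SOL), a slow, oxidative one. Mice were wild type or mdx, a mouse model of Duchenne muscular dystrophy in which a germline mutation in Dmd removes full-length dystrophin. The labels give neither a background strain nor a sex, and they name no treatment. At 2 months there were 4 wild-type and 3 mdx libraries of FDB, and 4 of each genotype for EDL and for SOL. At 5 months there were 4 and 7 of FDB, 4 and 6 of EDL, and 4 and 7 of SOL. The labels do not say that each library is a separate animal, and p-values therefore speak of variation among libraries, part of which could be technical.

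Values are RPKM, read counts divided by transcript length and by the library's mapped reads. Depth, estimated from the size of 1 read in the low values, was 20.1 to 66.3 M reads, with 49.9 M in the median library (M, 1000000 reads). Dmd was lower in every mdx group, for example 1.89 RPKM against 7.52 in EDL at 2 months, as the genotype labels say. Ckm, the muscle creatine kinase, and Acta1, the skeletal actin, were at 2734 RPKM or more in every library, while myosins differed by muscle: wild-type muscles at 2 months held Myh7, the slow myosin heavy chain, at a mean of 1751 RPKM in SOL, 254 in FDB and 1.797 in EDL. The mdx groups at 5 months mix libraries from different runs of library numbers: the headers give only these numbers, and whether they mark separate preparations is not stated. In mdx SOL at 5 months, the 4 libraries numbered ns49 to ns53 stood apart from the 3 numbered from ns54 upwards. Their depth was 21.1 to 25.8 M reads against 44.0 to 61.5 M, and the main results that rest on them are given with and without them. All wild-type and all 2-month libraries carry numbers below ns49, so the number runs and the 5-month mdx group cannot be fully told apart.

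Short sequence motifs recur in part of the family's promoters. The RefSeq promoter table (GRCm38.p6, the build called mm10, 250 bases before to 50 after each start) held 68 of the 77 genes. The ETS core CCGGAAG, read by GA-binding protein (Gabpa with Gabpb1), occurred on either strand in 25 of 68 members (36.8%), against 9.9% of 27025 genes and 19.5% of 9476 genes that were also tested for expression. The core AAGATGGC of YY1 occurred in 12 members (17.6%), against 3.2% and 5.3%. The core GCGCATGC of nuclear respiratory factor 1 (Nrf1) occurred in 8 members (11.8%), against 3.0% and 5.9%. At least 1 of these 3 motifs was found in 37 of 68 members (54.4%), against 14.9% of all genes. That combined share was not taken over the tested genes, among which each single motif was more common than among all genes. A match describes letters and is not a measured binding site. The 120 bases just upstream of the start are shown for 5 members with a match and for 2 members without one in these bases, Mrps12 and Mrpl42, because large or repeated mdx differences concern them. In the whole 300-base window Mrps12 holds an ETS and a YY1 match and Mrpl42 a YY1 match. Capitals mark an ETS or Nrf1 core on either strand, and in Mrpl9 a pair of overlapping Nrf1 cores.
Mrpl3 (chr9:105053148-105053267, plus strand, ETS): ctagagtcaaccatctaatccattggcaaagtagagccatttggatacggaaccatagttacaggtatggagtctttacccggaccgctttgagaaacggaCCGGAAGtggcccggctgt
Mrps18a (chr17:46110884-46111003, plus strand, ETS): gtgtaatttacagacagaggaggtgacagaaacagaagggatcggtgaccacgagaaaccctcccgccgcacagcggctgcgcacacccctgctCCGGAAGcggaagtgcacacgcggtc
Mrpl52 (chr14:54426789-54426908, plus strand, ETS on the minus strand): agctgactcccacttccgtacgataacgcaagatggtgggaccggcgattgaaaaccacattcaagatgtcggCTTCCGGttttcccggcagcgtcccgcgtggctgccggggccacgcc
Mrpl33 (chr5:31613831-31613950, plus strand, Nrf1): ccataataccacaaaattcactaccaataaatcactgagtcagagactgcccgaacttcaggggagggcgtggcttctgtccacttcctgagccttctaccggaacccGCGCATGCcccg
Mrpl9 (chr3:94443216-94443335, plus strand, Nrf1): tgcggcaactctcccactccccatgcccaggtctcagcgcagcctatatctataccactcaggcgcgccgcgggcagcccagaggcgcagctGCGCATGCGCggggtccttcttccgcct
Mrps12 (chr7:28741822-28741941, minus strand, none in the bases shown): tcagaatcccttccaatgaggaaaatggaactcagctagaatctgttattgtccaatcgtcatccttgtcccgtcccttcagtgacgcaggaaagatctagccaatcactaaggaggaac
Mrpl42 (chr10:95501950-95502069, minus strand, none in the bases shown): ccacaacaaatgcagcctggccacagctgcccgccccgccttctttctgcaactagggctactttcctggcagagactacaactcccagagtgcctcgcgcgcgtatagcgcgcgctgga

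The genes lie on 17 chromosomes and are short, with a median exon length of 2255 bases (607 to 8631) against 4366 bases over all tested genes with a length. The highest mean level over all libraries was that of Mrpl42, a large subunit protein found in mammals, at 164 RPKM, followed by Mrps21 at 100.04 RPKM, Mrpl33 at 79.6 RPKM and Mrpl30 at 68.8 RPKM. The lowest were Mrpl19 at 3.99 RPKM, Mrpl17 at 4.18 RPKM, Mrps25 at 5.58 RPKM and Mrpl1 at 5.63 RPKM. RPKM is a level per length, so these levels compare between genes as far as the authors' gene models hold. An exon of 32 members overlaps another gene, a protein-coding one for 23 of them (GENCODE vM21). Whether counting used strand is not given in the sources used here, which leaves the levels of those members uncertain. Among the members named here these are Mrpl3, Mrpl9, Mrpl12, Mrpl14, Mrpl18, Mrpl19, Mrpl24, Mrpl27, Mrpl33, Mrpl44, Mrpl47, Mrpl48, Mrpl49, Mrpl53, Mrps18b, Mrps18c, Mrps25, Mrps30 and Mrps34.

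The geometric mean over the 77 genes, a single summary per library, was highest in SOL. In wild-type mice at 2 months FDB had 17.8 ± 0.548 RPKM (SD, n = 4), EDL 18.6 ± 0.378 and SOL 23.9 ± 0.899. At 5 months the wild-type means were 17.9 ± 0.494, 19.3 ± 0.694 and 23.9 ± 0.791 RPKM. SOL libraries did not overlap those of the other 2 muscles at either age, and the spread of FDB and EDL values was small beside that gap. At 2 months mdx FDB had 17.3 ± 0.654 RPKM (n = 3), mdx EDL 19.4 ± 0.365 (n = 4) and mdx SOL 23.9 ± 0.428 (n = 4). On deposited RPKM each was within 1 RPKM of wild type, a closeness that depended on scaling. Median-of-ratios scaling sets each library by its typical gene in place of its total reads. So scaled, the median log2 difference of members from wild type was -0.16 (FDB), -0.11 (EDL) and -0.11 (SOL). Unscaled it was -0.03, 0.05 and 0.01. Large and small subunit genes ordered the muscles alike, with 24.5 and 22.8 RPKM in wild-type SOL and 18.1 and 17.2 RPKM in FDB at 2 months.

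**Figure D1:**
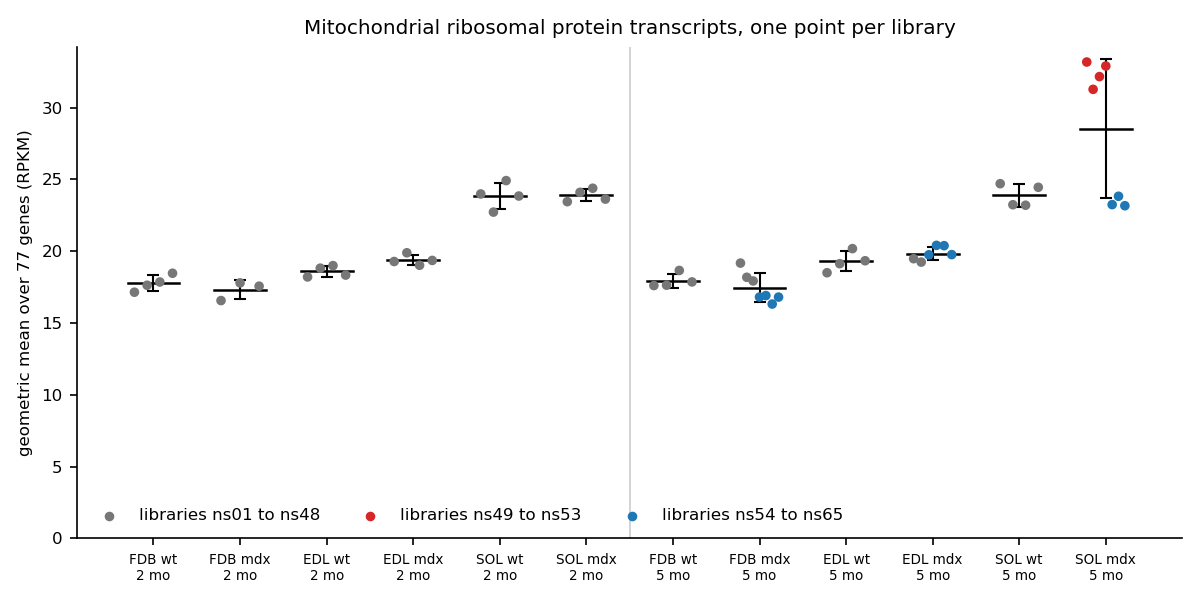
Geometric mean RPKM of the 77 mitochondrial ribosomal protein genes in each of the 55 libraries, by muscle, genotype and age, on deposited RPKM; grey points are libraries numbered below ns49, red ns49 to ns53 and blue ns54 upwards. Wild-type SOL lies at 22.7 to 24.9 RPKM, above FDB and EDL, and the 4 red libraries of mdx SOL at 5 months lie at 31.3 to 33.2 RPKM.

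Among wild-type muscles, most of the family had more RNA in SOL than in the other muscles. The mean was highest in SOL for 69 of 77 genes at 2 months and for 66 at 5 months, and the most common order was SOL above EDL above FDB, with 41 and 46 genes. Compared to EDL, 56 genes were higher and 0 lower in SOL at 2 months (limma, adjusted p under 0.05), where 52.3% of all tested genes were called, 32.5% as higher and 19.8% as lower. At 5 months 47 were higher and 2 lower, with 54.4% of all genes called (36.7% higher, 17.7% lower). With median-of-ratios scaling, which sets each library by its typical gene in place of its total reads, the counts were 40 higher and 1 lower, and 30 higher and 4 lower. No scaled share of all genes stands beside these counts. The member median difference was 0.29 and 0.23 on the log2 scale, beside 0.06 and 0.09 over all genes, and 45 genes were called higher at both ages (80.4% of the first list and 95.7% of the second).

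FDB had the lowest levels. Compared to SOL, 0 genes were higher and 61 lower at 2 months, and 1 was higher and 56 lower at 5 months, where 70.3% of all genes were called at 2 months (52.2% higher, 18.1% lower) and 68.5% at 5 months (49.5% higher, 19.0% lower). The member median was -0.39 at both ages, beside 0.20 and 0.18 over all genes, and scaling gave 73 and 71 lower genes and none higher. Compared to EDL, FDB had 15 genes higher and 22 lower at 2 months, and 15 and 30 at 5 months, with 71.7% (56.7% higher, 15.0% lower) and 72.7% (57.6% higher, 15.1% lower) of all genes called. That mixed picture depended on scaling, under which 2 were higher and 61 lower at each age. The scaled counts of FDB are likewise given without a scaled share of all genes. The muscle comparisons share wild-type groups, so they are not independent of each other.

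Single members differed in the size or the order of these differences. Mrps35, a small subunit protein (chr6:147042764-147073991), stood at 16.3, 14.8, 18.03 and 16.4 RPKM in wild-type SOL at 2 months and at 8.53, 9.22, 8.30 and 8.84 RPKM in EDL. No SOL library overlapped an EDL one, and the log2 difference was 0.84 ± 0.08 (SE; adjusted p 8.3e-12, limma). Mrpl14, a large subunit protein (chr17:45686322-45698495), had the largest difference at 5 months. It was at 98.8, 81.9, 84.5 and 98.6 RPKM in SOL, at 38.5, 42.3, 45.6 and 41.7 RPKM in EDL and at 41.0, 41.2, 44.4 and 40.4 RPKM in FDB. FDB and EDL overlapped while all SOL libraries were higher, with a log2 difference from EDL of 1.09 ± 0.12 (adjusted p 1.45e-10). An exon of Mrpl14 overlaps Tmem63b on the other strand, and reads of the pair cannot be told apart here.

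Mrpl41, a large subunit protein encoded by a short gene (chr2:24974117-24975098), was lowest in EDL. Its wild-type values at 2 months were 5.01, 5.45, 5.45 and 5.24 RPKM in EDL and 9.80, 9.15, 10.6 and 9.82 RPKM in SOL. The groups were well apart, and Mrpl41 was also higher in FDB than in EDL, by 0.57 on the log2 scale at both ages (0.32 and 0.31 scaled, all 4 adjusted p under 0.05). Mrpl20 was higher in FDB than in EDL by 0.64 and 0.51, and Mrpl52 by 0.61 at 2 months, which was 0.33 with an adjusted p of 0.136 when scaled. Mrpl33 was higher in SOL than in EDL by 0.71 and 0.83. Mrps18a was higher in SOL than in EDL by 0.80 at 2 months (adjusted p 1.15e-10) and by 0.61 at 5 months.

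Mrps36, the α-ketoglutarate dehydrogenase component, was lowest in FDB. At 2 months it was at 25.1, 29.4, 27.9 and 32.5 RPKM in wild-type FDB, at 48.3, 51.7, 49.0 and 47.3 RPKM in EDL and at 60.5, 53.3, 61.9 and 62.5 RPKM in SOL. FDB libraries lay below every library of the other muscles, by -0.76 against EDL and -1.03 against SOL (adjusted p 3.87e-07 and 3.4e-10), whereas EDL and SOL did not differ past the threshold (0.27 ± 0.12, adjusted p 0.0537). Mrpl34 behaved alike, lower in FDB than in EDL by -0.63 and -0.82 and than in SOL by -0.90 and -0.99. Mrpl28, Mrpl38 and Mrpl45 also fell in FDB, with -1.05 for Mrpl28 against SOL at 5 months, -0.61 for Mrpl38 against EDL at 5 months and -0.93 for Mrpl45 against SOL at 2 months. Mrpl12, the large subunit stalk protein, was higher in SOL than in EDL by 0.67 and 0.49.

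A few members did not follow SOL. Mrps28, a small subunit protein, was lower in SOL than in EDL at 5 months, by -0.24 (adjusted p 0.00277, limma), as was Mrpl23, by -0.31 (adjusted p 0.0248). The call for Mrpl23 was lost without wild-type EDL library 3 or without wild-type SOL library 3. Mrpl42, the most abundant member, had the same level in SOL and EDL within its error (-0.01 ± 0.08 and 0.00 ± 0.08) and was lower in FDB than in EDL, by -0.53 and -0.44. Mrpl40 was the 1 gene higher in FDB than in SOL at 5 months, by 0.26, which was 0.11 with an adjusted p of 0.254 when scaled.

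**Figure D2:**
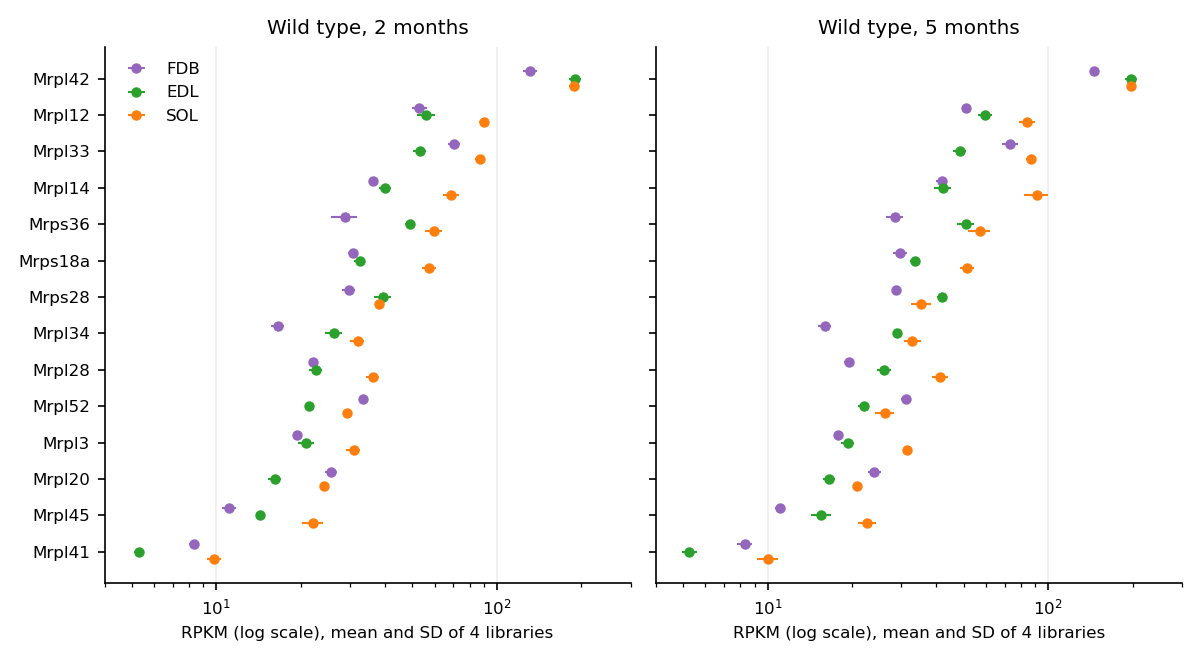
RPKM on a log axis of 14 members in wild-type FDB, EDL and SOL at 2 and 5 months; points are means and bars the SD of 4 libraries. Mrpl14 in SOL at 5 months lies well above FDB and EDL (log2 difference from EDL 1.09, and 0.97 with median-of-ratios scaling), Mrps36 and Mrpl34 are lowest in FDB, and Mrpl42 is alike in EDL and SOL.

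In mdx muscle at 2 months, few members differed from wild type on deposited RPKM, fewer than the share of all genes. In FDB, 1 gene was higher and 3 lower (limma, adjusted p under 0.05), where 34.6% of all tested genes were called, 30.0% as higher and 4.60% as lower. In EDL, 15 were higher and 4 lower, with 50.3% of all genes called (41.6% higher, 8.69% lower). In SOL, 3 were higher and 2 lower, with 39.9% of all genes called (32.3% higher, 7.68% lower). The member medians were -0.03, 0.05 and 0.01 on the log2 scale, against 0.13, 0.14 and 0.10 over all genes, so the typical gene shifted up while the typical member stayed near 0. Scaling moves that median of all genes to 0.02, 0.02 and 0.01. The scaled member counts were 0 higher and 18 lower (FDB), 1 and 19 (EDL), and 0 and 10 (SOL). They are given without the scaled share of all genes, so they do not show whether members exceed it. The count of 4 in FDB became 0 without mdx library 1, 1 without mdx library 3 or wild-type library 3, and 2 without wild-type library 1. The count of 5 in SOL became 2 without mdx library 2 or wild-type library 2, and 3 without mdx library 1, mdx library 3 or wild-type library 4.

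At 5 months the FDB and EDL differences on deposited RPKM were again small and in both directions, a picture that depended on scaling. In FDB, 7 members were higher and 11 lower, with 62.6% of all genes called (53.1% higher, 9.46% lower). In EDL, 17 were higher and 8 lower, with 68.7% of all genes called (60.2% higher, 8.52% lower). Scaled, 0 were higher and 51 lower in FDB and 0 and 44 in EDL, where 27.2% and 24.2% of all genes were called lower. The member medians were -0.04 and 0.05, beside 0.18 and 0.23 over all genes.

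Within FDB the count of lower genes followed the library numbers. The geometric mean over members was 17.9 to 19.2 RPKM in the 3 mdx libraries numbered below ns49 and 16.3 to 16.9 RPKM in the 4 numbered above ns53, against 17.6 to 18.7 RPKM in wild type. The former gave 17 higher and 9 lower genes (56.7% of all genes called), and the latter 4 higher and 36 lower (71.4% called, 11.9% as lower). The same 4 libraries had summed Schwann cell markers of 153.9 to 230.0 RPKM against 48.04 to 52.3, and summed smooth muscle markers of 198.7 to 253.1 against 40.4 to 53.1. Their summed adipocyte markers were 22.98 to 38.7 RPKM against 3.84 to 9.37, and their summed fibre markers 28488 to 29618 RPKM against 33179 to 37688. In FDB at 2 months, over both genotypes, Schwann cell sums were 161.0 to 221.3 RPKM and smooth muscle sums 45.8 to 152.9. In wild-type FDB at 5 months they were 44.8 to 77.1 and 25.2 to 38.6 RPKM. The part of these cell types in the FDB counts was not tested. In EDL the mdx libraries numbered below ns49 were only ns38 and ns40. They gave 17 higher and 13 lower genes (63.2% of all genes called, 53.6% higher and 9.60% lower). Those from ns54, namely ns62 to ns65, gave 28 and 14 (75.3% called, 65.7% higher and 9.54% lower). The EDL counts of these runs thus rest on unequal numbers of libraries.

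**Figure D3:**
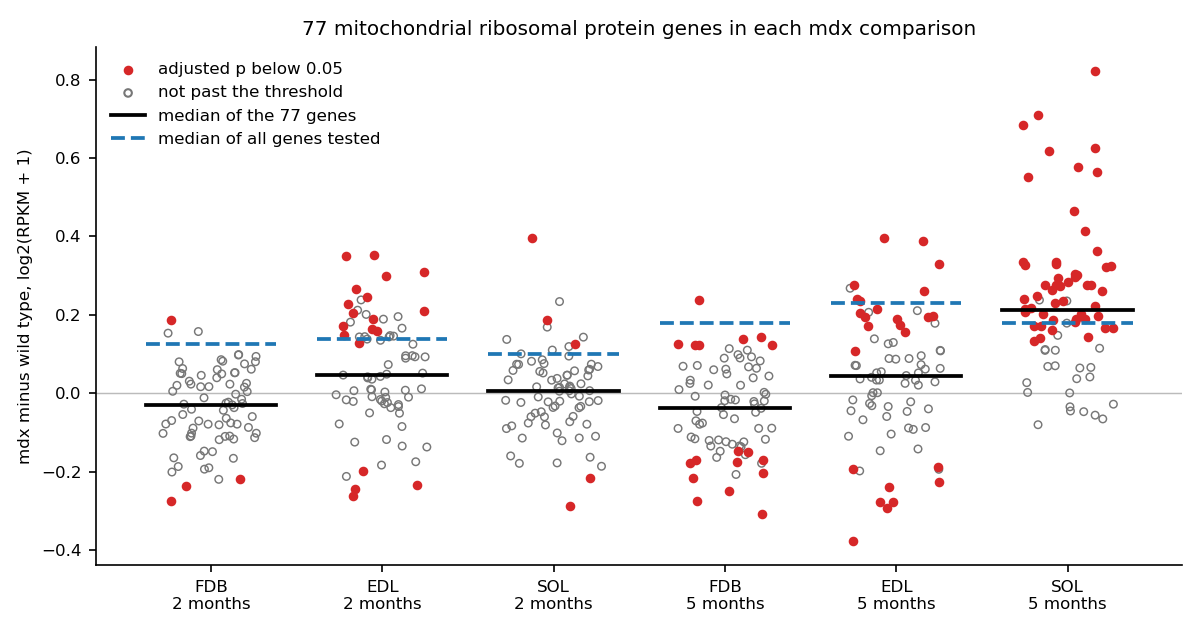
Log2 difference of mdx from wild type for the 77 genes in the 6 comparisons, 1 for each muscle at each age, on deposited RPKM; red points have an adjusted p under 0.05, the black line is the member median and the blue dashed line the median of all tested genes. The member median lies below that of all genes in 5 of the 6 comparisons, and in SOL at 5 months it is 0.21 against 0.18, or 0.03 against 0.03 with median-of-ratios scaling.

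SOL at 5 months was the exception, with 53 members higher and 0 lower, where 64.2% of all tested genes were called, 52.9% as higher and 11.3% as lower. The rise rested on the 4 libraries numbered ns49 to ns53. The geometric mean over members was 31.3 to 33.2 RPKM in these 4, 23.2 to 23.8 RPKM in the other 3 mdx libraries and 23.2 to 24.7 RPKM in wild type. With only the former as the mdx group, 69 members were higher and 0 lower, with a median difference of 0.37 and 69.2% of all genes called (52.9% higher, 16.3% lower). With only the latter, 11 were higher and 18 lower, with a median of -0.02 and 63.5% of all genes called. Scaled over all 7 mdx libraries, 10 were higher and 11 lower, with 59.7% of all genes called (33.5% higher, 26.2% lower). Scaled over the latter 3 alone, 0 were higher and 53 lower, with 57.2% called (31.9% higher, 25.3% lower).

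In those 4 libraries the difference fell with transcript length above 600 bases. Over the 144 tested genes of up to 600 bases, none of them a member, its median was 0.32. Over all tested genes it was 0.58 for exon lengths of 601 to 1000 bases, 0.54 for 1001 to 1500, 0.38 for 1501 to 2500, 0.26 for 2501 to 4000 and 0.08 above that. Members had medians of 0.58, 0.60, 0.37, 0.29 and 0.32 in the same ranges, close to those of other genes of like length up to 4000 bases and above them beyond. In the other 3 libraries the medians of all genes ran from 0.13 to 0.20 over these ranges and those of members from -0.04 to 0.02. With the length trend removed over all 7 libraries, 8 members were higher and 36 lower, given without the share of all genes in that setting. Summed erythroid markers were 743 to 1012 RPKM in the 4 libraries, 224.8 to 248.2 in the other 3 and 141.5 to 281.2 in wild type. What set these libraries apart was not tested.

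**Figure D4:**
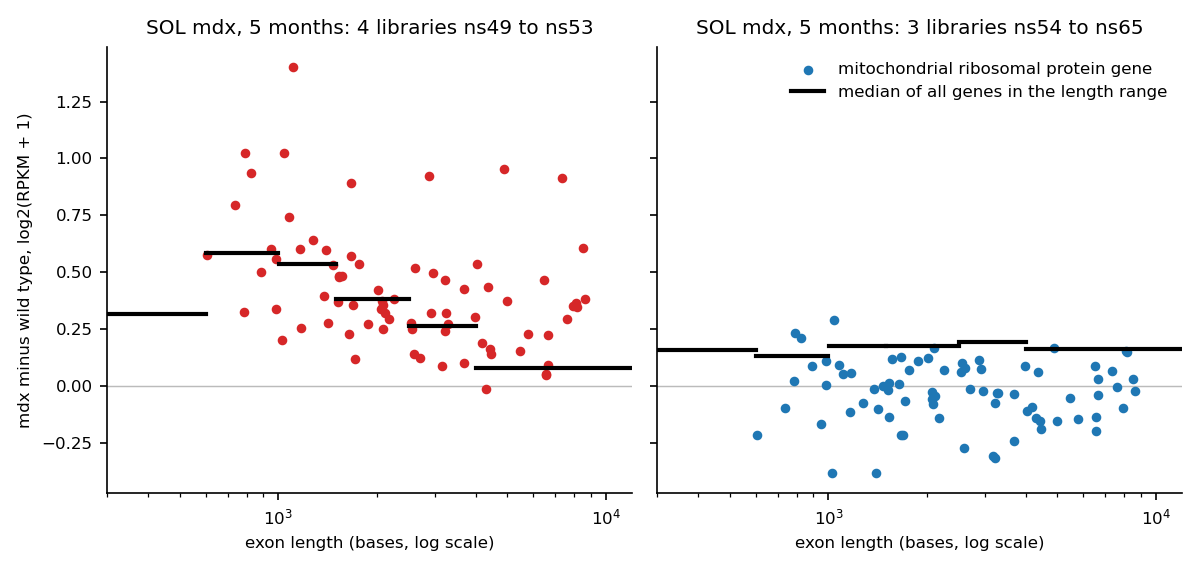
Log2 difference of mdx from wild-type SOL at 5 months against exon length (log axis) for the 77 genes, with the 4 libraries ns49 to ns53 on the left and the other 3 on the right, on deposited RPKM; bars are the median of all tested genes in each length range. On the left the all-gene median falls from 0.58 at 601 to 1000 bases to 0.08 above 4000 bases. On the right the medians of members lie near 0 in every length range, with single members on both sides of 0. With median-of-ratios scaling, 0 members were higher and 53 lower there.

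Of the 6 mdx comparisons, no member was called in one direction in more than 4. Mrpl42 and Mrps28 were lower in 4, and Mrpl3, Mrpl24, Mrpl39 and Mrps2 were higher in 4. In all, 11 members were called in none, and 5 were called in both directions. Scaled, 3 members were lower in all 6 comparisons, namely Mrpl1, Mrpl16 and Mrpl42, and no member was higher in more than 1.

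Mrpl42 (chr10:95480805-95501940, minus strand) fell in mdx FDB and EDL at both ages. In FDB at 2 months it was at 121, 131, 138 and 136 RPKM in wild type and at 98.9, 114 and 113 RPKM in mdx, without overlap. The log2 difference was -0.27 ± 0.09 (adjusted p 0.0126, limma), a call lost without mdx library 1. In EDL at 2 months wild-type values were 194, 193, 198 and 176 RPKM and mdx values 172, 173, 149 and 153 RPKM, again without overlap (-0.23 ± 0.08, adjusted p 0.0134, lost without mdx library 3). At 5 months the differences were -0.31 ± 0.07 in FDB (adjusted p 0.000219) and -0.24 ± 0.07 in EDL (adjusted p 0.0039). In SOL at 2 months mdx libraries stood at 163, 168, 163 and 167 RPKM and wild type at 184, 179, 196 and 195 RPKM. These also did not overlap, but the difference of -0.19 missed the threshold (adjusted p 0.059) unless scaled (-0.31, adjusted p 0.0069).

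Mrps28 fell in the same 4 groups, where its differences were -0.22 ± 0.07 in FDB and -0.26 ± 0.07 in EDL at 2 months (adjusted p 0.0182 and 0.00138, limma). At 5 months they were -0.17 ± 0.06 in FDB and -0.29 ± 0.06 in EDL (adjusted p 0.014 and 6.4e-05). In EDL at 5 months wild-type values were 40.4, 41.6, 43.8 and 41.2 RPKM, and mdx values ran from 31.8 to 34.8 RPKM with a median of 34.2. The 6 mdx libraries all lay below the wild-type range. The FDB call at 2 months was lost without mdx library 1, without mdx library 3 or without wild-type library 3. In SOL at 5 months Mrps28 was higher, by 0.20 ± 0.06 (adjusted p 0.0042), but by 0.02 with the 3 libraries from ns54 upwards alone (adjusted p 0.69) and at 0.00 when scaled (adjusted p 0.97).

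Of the other lower members, Mrpl55, a large subunit protein, fell in EDL at both ages, by -0.25 ± 0.10 and -0.38 ± 0.09 (adjusted p 0.038 and 0.000356, limma). At 5 months its EDL values were 19.7, 22.1, 23.4 and 21.7 RPKM in wild type and 15.8 to 17.1 RPKM in mdx, with a median of 16.5. The groups did not overlap, while the call at 2 months was lost in 5 of 8 fits without 1 library. Mrps18b fell in EDL and FDB at 5 months, by -0.28 ± 0.06 and -0.18 (adjusted p 6.5e-05 and 0.0067), and Mrpl34 in EDL at 5 months, from 27.9, 29.2, 29.9 and 28.9 RPKM to between 22.5 and 24.6 RPKM. Mrpl47 and Mrps34 fell in FDB at 5 months, by -0.27 ± 0.08 and -0.25 ± 0.07 (adjusted p 0.00217 and 0.00104), as did Mrps30, by -0.17. In 2-month SOL Mrpl16 stood at 25.4, 25.5, 26.6 and 26.9 RPKM in wild type and at 18.9, 23.4, 20.96 and 21.8 RPKM in mdx, a fall of -0.29 ± 0.08 (adjusted p 0.00202). Mrps18a fell in FDB and SOL at 2 months, by -0.24 and -0.22 (adjusted p 0.0499 and 0.0467), calls that were lost in 6 of 7 and 7 of 8 fits without 1 library.

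**Figure D5:**
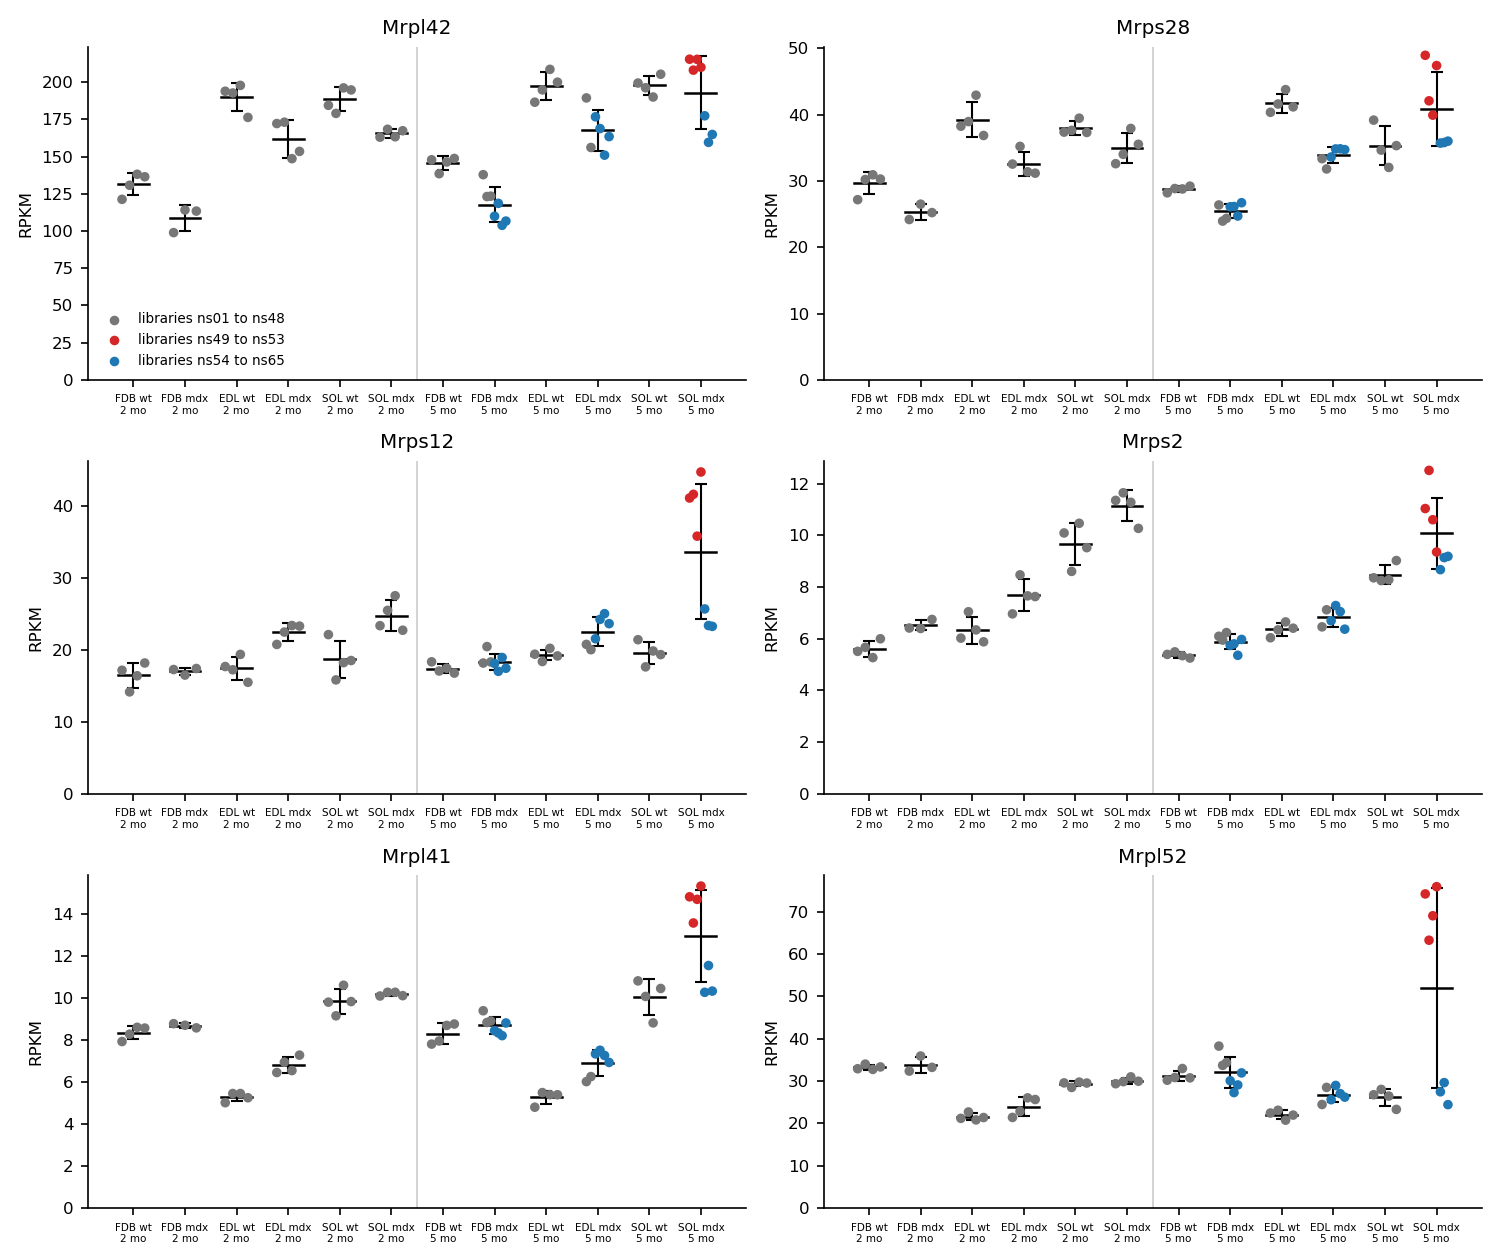
RPKM of Mrpl42, Mrps28, Mrps12, Mrps2, Mrpl41 and Mrpl52 in every library of the 12 groups, with the group mean and SD; red points are the 4 libraries ns49 to ns53. Mrpl42 and Mrps28 are lower in mdx FDB and EDL, also when scaled, and the rise of Mrpl52 in mdx SOL at 5 months is carried by the red points, at 63.2 to 75.9 RPKM against 24.4 to 29.6 in the other 3.

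Mrps12, a protein of the decoding site of the small subunit (chr7:28739641-28741820, minus strand), was higher in mdx SOL at both ages. At 2 months it was at 22.2, 15.9, 18.3 and 18.6 RPKM in wild type and at 23.4, 25.5, 27.6 and 22.8 RPKM in mdx, without overlap. The log2 difference was 0.39 ± 0.13 (adjusted p 0.0104, limma), and 0.28 with an adjusted p of 0.08 when scaled. The call was lost without wild-type library 2. At 5 months wild-type values were 21.5, 17.7, 19.9 and 19.4 RPKM, the 4 mdx libraries numbered ns49 to ns53 stood at 41.2, 41.7, 35.9 and 44.8 RPKM and the other 3 at 25.7, 23.4 and 23.3 RPKM. All 7 mdx libraries lay above wild type, by 0.71 ± 0.11 (adjusted p 5.07e-07), and by 0.29 with the latter 3 alone (adjusted p 0.00174). In EDL at 2 months Mrps12 was higher by 0.35 ± 0.13 (adjusted p 0.018), which was 0.19 with an adjusted p of 0.216 when scaled and was lost without wild-type library 4.

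Mrpl39, a large subunit protein (chr16:84717576-84735742, minus strand), was higher in mdx EDL at both ages. At 2 months wild-type values were 8.32, 9.33, 9.26 and 7.97 RPKM and mdx values 10.7, 11.3, 11.6 and 11.96 RPKM. There was no overlap, and the difference of 0.35 ± 0.06 (adjusted p 8.2e-06, limma) remained past the threshold when scaled (0.20, adjusted p 0.0079). At 5 months wild type stood at 7.72, 8.70, 8.76 and 8.21 RPKM and mdx between 9.71 and 10.96 RPKM, a difference of 0.28 ± 0.06 (adjusted p 4.3e-05) that was 0.04 when scaled. Mrpl41 was higher in EDL by 0.31 ± 0.08 and 0.33 ± 0.07 (adjusted p 0.00098 and 9.4e-05), but by 0.17 and 0.11 when scaled (adjusted p 0.071 and 0.204). Its EDL values at 2 months were 5.01, 5.45, 5.45 and 5.24 RPKM in wild type and 6.45, 6.94, 6.54 and 7.27 RPKM in mdx.

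Of 15 members higher in mdx EDL at 2 months, 8 were also higher at 5 months, where 17 were called (53.3% and 47.1% of the lists). These were Mrpl3, Mrpl24, Mrpl39, Mrpl41, Mrpl44, Mrpl49, Mrps22 and Mrps23. At each age a larger share of all genes than of members was called higher, as given above. Scaled, Mrpl3, Mrpl24, Mrpl41, Mrpl44, Mrpl49 and Mrps22 were called higher in no mdx comparison, and no member was higher in EDL at 5 months. Mrpl44, an RNase III-like protein of the large subunit, was higher in EDL by 0.30 and 0.20 but lower in FDB at 5 months, by -0.17 (adjusted p 0.0061, limma). Mrpl3 was higher by 0.17 and 0.26 in EDL, and Mrps22 by 0.27 and 0.20. Of the other genes higher in EDL at 5 months, Mrpl33 had 0.40 ± 0.13 and Mrpl53 0.39 ± 0.11 (adjusted p 0.00555 and 0.00189). In FDB at 5 months Mrpl4 was higher by 0.24 ± 0.08 (adjusted p 0.00715), and Mrpl24 and Mrpl48 by 0.14 each, the latter 2 with a negative sign when scaled (-0.07 and -0.06). The call for Mrpl24 was lost in 4 of 11 fits without 1 library and that for Mrpl48 without wild-type library 4.

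Mrps2, a small subunit protein (chr2:28468066-28471178), was higher in all 3 muscles at 2 months. In FDB it was at 5.51, 5.67, 5.27 and 5.999 RPKM in wild type and 6.42, 6.40 and 6.75 RPKM in mdx. In EDL the values were 6.02, 7.04, 6.34 and 5.88 RPKM against 6.96, 8.47, 7.66 and 7.63 RPKM. Of the 3 muscles only FDB had groups without overlap, and the differences in the 3 muscles, in the order FDB, EDL, SOL, were 0.19, 0.25 and 0.19 (adjusted p 0.0399, 0.002 and 0.0216, limma). Scaled, none of the 3 passed the threshold (0.07, 0.10 and 0.08), and the FDB call was lost in 6 of 7 fits without 1 library, the SOL call without mdx library 1, mdx library 2 or wild-type library 2. In SOL at 2 months Mrpl9 was higher by 0.13 (adjusted p 0.0388), a call lost in 4 of 8 such fits.

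In SOL at 5 months the largest differences were those of Mrpl52, Mrps12 and Mrpl53. Mrpl52 was at 26.7, 27.995, 26.4 and 23.3 RPKM in wild type, at 74.2, 63.2, 69.0 and 75.9 RPKM in libraries ns49 to ns53 and at 27.4, 29.6 and 24.4 RPKM in the other 3 mdx libraries. The last 3 overlapped wild type, and the log2 difference of 0.82 ± 0.17 (adjusted p 6.56e-05, limma) was 0.05 with them alone (adjusted p 0.446). Mrpl53 was at 49.1, 43.9, 46.4 and 47.8 RPKM in wild type, at 97.0, 97.9, 87.8 and 102 RPKM in the 4 libraries and at 54.5, 56.2 and 54.6 RPKM in the other 3. All mdx libraries lay above wild type, and the difference of 0.68 ± 0.11 was 0.23 with the other 3 alone (adjusted p 5.7e-05). Mrps16 and Mrps18c, small subunit proteins, passed the threshold in this 1 of the 6 mdx comparisons, by 0.58 and 0.46, as did Mrpl12 by 0.28 and Mrps36 by 0.34. With the other 3 libraries alone these 4 did not pass, at 0.12, 0.09, 0.01 and -0.08 (adjusted p 0.126, 0.0819, 0.828 and 0.367, limma). Over the other 3 libraries the lowest values were -0.38 for Mrpl18 and for Mrpl55, -0.32 for Mrpl30 and -0.31 for Mrpl16.

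Between 2 and 5 months, few members changed in wild-type mice on deposited RPKM. Scaled, 11 were higher in FDB (32.0% of all genes called, 13.8% higher), 15 in EDL (21.8% and 8.36%) and 8 in SOL (17.6% and 7.40%), with 0 lower in each. In FDB 4 were higher and 2 lower at 5 months (33.6% of all genes called, 6.33% higher and 27.3% lower). In EDL 1 was higher (23.8% called, 2.57% higher and 21.2% lower), and in SOL 2 were (17.3% called, 3.58% higher and 13.7% lower). Mrpl47 and Mrpl40 rose in FDB, by 0.30 ± 0.09 and 0.23 ± 0.08, whereas Mrpl4 and Mrpl27 fell, by -0.31 ± 0.09 and -0.15 ± 0.06 (adjusted p 0.00778, 0.0264, 0.00604 and 0.041, limma). Those of Mrpl40 and Mrpl27 were lost in 3 and 5 of 8 fits without 1 library, and Mrpl4 and Mrpl27 did not pass when scaled. Mrps18b rose in EDL, by 0.20 ± 0.06 (adjusted p 0.0239, lost in 3 of 8 fits). In SOL Mrpl14 rose from 69.0, 66.8, 74.8 and 64.7 RPKM to 98.8, 81.9, 84.5 and 98.6 RPKM, without overlap (0.39 ± 0.12, adjusted p 0.0213, lost in 3 of 8 fits). Mrps30 rose in SOL by 0.22 ± 0.05 (adjusted p 0.00367). The count in FDB became 3 without 2-month library 1 or 3 or 5-month library 2, that in EDL 0 without 2-month library 2 or 4 and 4 without 2-month library 3, and that in SOL 1 without 2-month library 4 or 5-month library 1 or 4.

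In mdx mice, age changed 0 members in FDB (5.88% of all genes called, 2.42% higher and 3.46% lower; 5 members at an unadjusted p under 0.05). It changed 1 in EDL (17.6% called, 11.6% of all genes as lower), where Mrpl2 rose by 0.19 (adjusted p 0.0165, limma, lost without mdx library 3 of 2 months). That count became 2 without 2-month library 1 and 4 without 5-month library 2, and the FDB count 1 without 5-month library 6. By number run, FDB libraries from ns54 upwards gave 3 higher and 12 lower members (16.7% of all genes called), and those below ns49 gave 14 and 1 (25.4% called). The EDL runs gave 14 and 3 (32.9% called) from ns54 upwards, and 1 call (11.1% of all genes) below ns49, with ns38 and ns40 alone. In SOL 50 rose (40.7% of all genes called, 20.6% higher and 20.2% lower), and with the 3 libraries from ns54 upwards alone 8 were higher and 11 lower (33.2% called, 16.8% higher and 16.4% lower). Mrpl14 rose by 0.85 and Mrpl53 by 0.65, or by 0.41 and 0.20 with those 3.

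The mdx difference itself was tested for a change with age and between muscles. The interaction with age called 0 members in FDB (1.34% of all genes called, 4 members at an unadjusted p under 0.05) and 0 in EDL (5.92% and 4 members). With 5-month libraries from ns54 upwards it called 11 in FDB, 2 of them upwards and 9 downwards (25.6% of all genes called), and 10 in EDL, 7 and 3 (23.9% called). With those below ns49 it called 3 in FDB, all upwards (3.35%), and 0 in EDL, there with ns38 and ns40 alone. It called 14 in SOL, all in the direction of a higher mdx difference at 5 months (14.0% of all genes called), and with the 3 libraries from ns54 upwards alone 5, of which 2 upwards and 3 downwards (15.8% called). Without any 1 of those 3 the SOL count was 29 to 34, and without 1 of 11 other SOL libraries, of all 4 groups, it was 8 or 9. Mrpl54, a large subunit protein, had an interaction of 0.62 ± 0.15 in SOL (adjusted p 0.00543, limma), which was 0.20 with those 3, and Mrpl52 one of 0.79 ± 0.26 (adjusted p 0.0366), which was 0.02 and was lost in 13 of 19 fits without 1 library. The interaction with muscle called 0 members at 2 months (6.02% of all genes called, 7 members at an unadjusted p under 0.05) and 33 at 5 months (37.1% called), which became 50 and 52 without mdx SOL library 5 or 7, both of the run from ns54. With the 5-month mdx libraries of all 3 muscles limited to that run, it was 35 (44.8% of all genes called). Mrps28, lower in FDB and EDL and higher in SOL, led the 5-month calls (limma F test, adjusted p 5.13e-05, and 0.00394 with mdx so limited). Mrps23 followed (adjusted p 0.000165, and 4.8e-07 so limited). It was higher in mdx EDL by 0.22 and in SOL by 0.33 at 5 months, or by 0.12 with the 3 SOL libraries of that run (adjusted p 0.00571, limma). The medians over all genes were 0.23, 0.18 and 0.17 in the same order.

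Other genes of mitochondrial translation were called in both directions. Of 6 mitochondrial ribosomal proteins without an Mrp symbol, 1 was higher in EDL at 2 months and 4 higher and 1 lower in SOL at 5 months, with none called in the other 4 comparisons. Those higher in SOL were Gadd45gip1 (0.47), Aurkaip1 (0.42), Ict1, a peptidyl-tRNA hydrolase in the large subunit (0.34), and Dap3 of the small subunit (0.20), while Ptcd3 fell by -0.14. With the 3 libraries from ns54 upwards alone these 5 were at -0.08, 0.05, 0.11, 0.03 and -0.11, none past the threshold, and 1 of the 6 was called, as lower. Of 18 tested translation factors, higher and lower calls in mdx at 2 months were 1 and 5 (FDB), 5 and 4 (EDL) and 4 and 2 (SOL), and at 5 months 2 and 7, 7 and 5, and 6 and 5, the last being 3 and 4 with those 3 libraries. Lrpprc, which stabilises mitochondrial messenger RNAs, was lower in all 6 comparisons, by -0.33 (FDB), -0.14 (EDL) and -0.16 (SOL) at 2 months and by -0.26, -0.23 and -0.36 at 5 months. Gfm2, a GTPase of ribosome recycling, was also lower in all 6, from -0.15 to -0.35. Mrrf, the recycling factor, was higher in 5 (0.13 to 0.35) and at 0.01 in SOL at 5 months. Over all genes the medians were 0.10 to 0.23 in those 5 and 0.18 in SOL at 5 months. The 5-month SOL values of Lrpprc, Gfm2 and Mrrf are over all mdx libraries. They are not given without ns49 to ns53. In wild-type EDL at 2 months Lrpprc had a mean of 20.9 RPKM and in mdx of 18.9 RPKM, without overlap.

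Of 19 mitochondrial aminoacyl-tRNA synthetases, 2 (FDB), 4 (EDL) and 2 (SOL) were higher at 2 months and 3, 7 and 7 at 5 months, with 1 lower in FDB and 1 in EDL at 5 months. Tars2, the threonyl-tRNA synthetase, was higher in all 6, by 0.13 to 0.31, where the medians over all genes were 0.10 to 0.23. Its 5-month SOL value is likewise over all mdx libraries, ns49 to ns53 among them. Of 27 tested genes of mitochondrial ribosome assembly and rRNA modification, the most called were 9 higher and 3 lower, in EDL and in SOL at 5 months. With the 3 SOL libraries from ns54 upwards these were 6 and 5 in SOL, and the synthetases 10 and 0. Mterf4 was higher in EDL by 0.25 and 0.31, and Fastkd2 lower by -0.24 and -0.27. The scaled counts of these lists leaned lower, for example 0 higher and 12 lower translation factors, 0 and 11 synthetases and 0 and 18 assembly genes in FDB at 5 months. Of 9 regulators of nuclear genes for mitochondria, Ppargc1a, a coactivator of mitochondrial biogenesis, fell in FDB at 5 months by -0.71 (adjusted p 0.00138, limma). Esrra, a nuclear receptor it acts with, fell in EDL at both ages, by -0.44 and -0.23, and in SOL at 2 months, by -0.28. Nrf1 was higher at 5 months in FDB (0.24), EDL (0.32) and SOL (0.20, and 0.22 with the 3 libraries from ns54 upwards), and Gabpb1 in FDB (0.33). Over all genes the 5-month medians were 0.18 (FDB), 0.23 (EDL) and 0.18 (SOL, and 0.17 with those 3), so Nrf1 lay little above the typical gene.

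Nuclear genes of the respiratory chain, which the mitochondrial ribosome's products join, had lower calls in more of their members. Of 81 tested, 0 were higher and 21 lower in 2-month FDB, 1 and 16 for EDL, and 1 and 11 for SOL. The 5-month counts were 3 and 40 (FDB), 4 and 14 (EDL), and 41 and 7 (SOL), the last of which became 2 and 43 with the 3 libraries from ns54 upwards. Between wild-type muscles, 63 and 61 of them were higher in SOL than in EDL at the 2 ages and 0 lower. Cytosolic ribosomal protein genes had mostly higher calls, with 6 higher and 1 lower of 82 (FDB), 35 and 1 (EDL) and 8 and 1 (SOL) at 2 months. At 5 months the counts were 53 and 1, 52 and 0, and 79 and 0, the last of which became 56 and 3 with the 3 libraries from ns54 upwards. All genes also leaned higher, by the shares given above for each comparison. The share of cytosolic genes called higher was below that of all genes in FDB and SOL at 2 months, and near it in EDL at both ages. Their scaled counts were 1 and 1, 3 and 3, 1 and 1, 11 and 2, 4 and 4, and 69 and 0, the last of these again over all 7 mdx SOL libraries. Counts of this kind are given beside each other without a test between the lists.

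Dystrophic muscle holds cells other than fibres, and in bulk RNA fewer cells of a type and less RNA per cell cannot be told apart. Of 10 macrophage markers, 10, 9 and 10 were higher in the mdx muscles (FDB, EDL, SOL) at 2 months and 10, 9 and 9 at 5 months. Summed macrophage marker RPKM was 202.8 to 259.6 in wild-type and 467.4 to 661.6 in mdx FDB at 2 months, and 87.5 to 145.9 and 359 to 716.1 in EDL. Of 7 fibroblast markers 5, 4 and 6 were higher at 2 months and 7 in each muscle at 5 months. Of 5 satellite cell and myoblast markers 4 were higher in each muscle at 2 months and 5 at 5 months. Of 10 fibre markers, 0 were higher and 1 lower (FDB), 3 and 2 (EDL) and 1 and 2 (SOL) at 2 months, and 0 and 4, 2 and 2, and 4 and 2 at 5 months. With the 3 SOL libraries from ns54 upwards, 3 and 3 fibre markers were called at 5 months, and the counts of the other 3 lists did not change. The part of cell makeup in the differences of the mitochondrial ribosomal protein genes was not tested.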

How the data were processed

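Muscles were dissected, RNA was extracted with Trizol and polyadenylated RNA was made into libraries with a NuGEN kit, per the labels' protocols. The authors deposited 1 table of RPKM values per gene and library; CASAVA 1.8.2, TopHat2 2.1.0, Partek 6.6 and the build mm10 are named, per the submitters' processing notes. For the annotation, the strand setting and the mapped read totals nothing is given in the sources used here. RPKM is relative to all mapped reads, so a few abundant genes can move every other gene, and it holds no counts. Depth was therefore estimated from the size of 1 read in low values, 58.0 to 77.8% of which came out whole within 0.1 read; it bounds the precision of low genes only.

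Libraries were grouped by the labels. Values were taken as log2(RPKM + 1), which understates changes of low genes, and the filter kept genes whose mean over the libraries reached 0.5 RPKM. A model of the 12 group means was fitted with limma 3.58.1 in R 4.3.3 (moderated, with a trend over mean level), giving 21 contrasts and 2 F tests, each adjusted by Benjamini-Hochberg over all 12541 genes at 0.05. The procedure was tested on simulated data with known changes in the 6 mdx comparisons. Changes of 0.3 on the log2 scale were recovered in 46.3 to 64.2% of genes, and changes of 0.6 in 80.6 to 95.5%. In each comparison 5 to 13 unchanged genes were called. Changes of about 0.3 may therefore go uncalled. Alternatives were no filter, a pseudocount of 0.1, median-of-ratios scaling (factors 0.801 to 1.21), removal of a loess trend over exon length (span 0.5; 99.4% of genes had a length, from GENCODE vM21), each run of library numbers alone, and leaving out each library. Tables were handled with Python 3.11.15, pandas 2.3.3, numpy 2.4.6 and matplotlib 3.10.9.

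The members and lists were chosen with earlier results of these data known. Genes named are up to 3 per direction with the largest called difference in each mdx and wild-type muscle comparison, up to 2 in age comparisons and interactions, the 4 highest and lowest levels, members called in most mdx comparisons, members with particular roles, and a few genes per list. Genes outside this rule were named after their values were seen. The authors' deposited table of their own comparisons and mitochondrially encoded genes were not analysed here.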

Additional observations from a re-analysis of the deposited data

Results flagged for a closer look

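Among the group values of 16 quantities, 7 of 176 had a single library far from the others of its group, where chance alone gives about 1 in 20. In wild-type SOL at 2 months the highest library of Mrps28 was at 39.5 RPKM, the others lying between 37.3 and 37.6, and the lowest of Mrpl39 at 11 RPKM, the others lying between 11.9 and 12.02. In wild-type SOL at 5 months the highest library of Mrps2 was at 9.02 RPKM (others 8.25 to 8.36) and the highest of Mrpl55 at 33.6 RPKM (others 30.2 to 30.7). The lowest library of Mrps18a in mdx SOL at 2 months was at 44.6 RPKM (others 50.3 to 51.3), that of Mrps36 in mdx EDL at 5 months at 44.7 RPKM (others 49.3 to 51.6) and that of Mrpl41 in wild-type EDL at 5 months at 4.79 RPKM (others 5.39 to 5.49).

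The mdx difference changed with age in SOL for 14 members by limma's interaction term, with Mrpl52 at an adjusted p of 0.0366 and Mrpl54 at 0.00543. It differed between the 3 muscles at 5 months for 33 members, with Mrps28 at an adjusted p of 5.13e-05 and Mrps23 at 0.000165. With mdx SOL at 5 months limited to the 3 libraries from ns54 upwards, the first count was 5. The call for Mrpl52 rested on ns49 to ns53 and was lost in most fits that left out a library. The shares of all genes called by both tests are given above, and neither count of members lies far beyond them.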

How the results depend on the processing

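No paired analysis was possible because the table's columns carry a library number and a group but no replicate number. Counts are of members called, with the main value in parentheses. With 5-month mdx libraries limited to those from ns54 upwards, mdx gave 40 in FDB (18), 42 in EDL (25) and 29 in SOL (53); age in mdx gave 15 (0), 17 (1) and 19 (50), and its interaction 11 (0), 10 (0) and 5 (14). With those below ns49 alone, age in mdx FDB gave 15 and its interaction 3; with ns49 to ns53 alone the SOL interaction gave 62. Scaling gave 18 (4) in FDB and 10 (5) in SOL at 2 months, at 5 months 51 (FDB), 44 (EDL) and 21 (SOL), and 63 (37) for FDB against EDL at 2 months; for age 11 (6), 15 (1) and 8 (2) in wild-type FDB, EDL and SOL and 3 in mdx EDL, and for its interaction 1 in EDL and 5 in SOL. Length trend removal gave 31 (4), 31 (19) and 29 (5) at 2 months, 70 and 53 in FDB and EDL at 5 months, and 63 for FDB against EDL; for age 28, 24 and 13 in wild type and 2 and 7 in mdx FDB and EDL, and for its interaction 2, 1 and 4. Both choices together, chosen after seeing the data, gave for FDB and EDL at 5 months 33 and 46 (below ns49, scaled), 48 and 52 (length), 74 and 61 (from ns54, scaled) and 76 and 65 (length). No filter gave 2 in FDB at 2 months, 9 for the SOL interaction and 1 for that with muscle at 2 months; a pseudocount of 0.1 gave 2 for age in wild-type EDL. Some signs reversed: in FDB at 5 months Mrpl24 (length -0.13, scaled -0.0689), Mrpl48 (-0.0729, -0.0638) and Mrpl4 (length -0.0287), and in SOL at 2 months Mrpl9 (length -0.034). The cause was not tested.

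Without each library in turn, mdx counts at 2 months ranged 0 to 4 (FDB), 14 to 18 (EDL) and 2 to 5 (SOL), and at 5 months 13 to 20, 22 to 26 and 45 to 59. Ranges between wild-type muscles were 52 to 57 and 46 to 49 (SOL, EDL), 33 to 38 and 40 to 46 (FDB, EDL), and 56 to 63 and 55 to 58 (FDB, SOL). For age they were 3 to 5, 0 to 4 and 1 to 3 in wild type and 0 to 1, 0 to 4 and 41 to 59 in mdx, for its interaction 0 to 0, 0 to 0 and 8 to 34, and for that with muscle 0 to 1 and 22 to 52. Depth is known only as an estimate, and levels near 1 RPKM are least certain.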
